A study of Homo sapiens with 30 samples.

Results

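The 10 genes described here are the growth factor gene IGF2, its imprinted neighbour H19, the clearance receptor gene IGF2R, the binding-protein genes IGFBP2, IGFBP3, IGFBP4, IGFBP5 and IGFBP6, the insulin receptor gene INSR and the adaptor gene IRS1. They were chosen by symbol out of 23262 genes in each time-course table and 23261 in the clone table, and INS-IGF2, a read-through transcript that contains IGF2 sequence, was followed beside IGF2. RNA came from Rh30, an established alveolar rhabdomyosarcoma cell line that carries the PAX3-FOXO1 fusion, in 30 sequenced samples that form 15 groups of 2. In the time course, a PAX3-FOXO1-FKBP line and a FOXO1-FKBP line were each sampled at 2, 6, 24 and 72 h of dTAG at 500 nM and in DMSO. FKBP is a degradation tag, here on PAX3-FOXO1 or on FOXO1 as the line names give it, and dTAG is a small molecule that directs a tagged protein to the proteasome. The other 10 libraries came from the PAX3-FOXO1-FKBP clones 4, 10, 11 and 12 and from parental Rh30, all labelled DMSO. The labels do not say how the clones were made, and they do not tie the time-course line to any of them. Whether both samples of a group are separate cultures is not stated, so the p-values reflect the spread between samples that may differ only technically.

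IGF2 is a secreted growth factor of fetal tissues. It acts through the IGF1 receptor and through a form of the insulin receptor, and both hand the signal to IRS adaptors and the PI3K-AKT pathway. IGF2R takes IGF2 up and sends it to lysosomes, while the IGF-binding proteins hold it outside the cell and either limit or prolong its action. IGF2 and the non-coding RNA H19 lie side by side in an imprinted region, where IGF2 is normally read from the paternal copy and H19 from the maternal one, and high IGF2 is a known feature of rhabdomyosarcoma.

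Each time-course value is 1 column that pools the 2 samples of a condition, so it carries no replicate error. Column totals ranged over 27561650 to 30466960 estimated counts for the PAX3-FOXO1-FKBP line and 25863451 to 27381073 for the FOXO1-FKBP line, and clone and parental libraries held 17746684 to 26834005 counts. dTAG acts on protein, so the mRNA of the tagged gene does not show whether the protein was lost, and protein was not measured here. Of 9 measured markers of a myogenic tumour cell, 8 had at least 10 counts in every column and library, while MYF5 was at 0 in all of them. The 2 h dTAG column of the PAX3-FOXO1-FKBP line stood apart: all 10 B cell and leukocyte markers had at least 10 counts there and summed to 2184 normalised counts, against 37.7 to 87.4 in the other 9 time-course columns. Trend results below are given with and without that column where it changes a call.

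With dTAG, IGF2 and IGFBP5 rose in the PAX3-FOXO1-FKBP line, and none of the other members passed the trend test. IGF2 had 223703 normalised counts (scaled with TMM factors) in DMSO, then 214205, 270924, 346608 and 413314 at 2, 6, 24 and 72 h. It was thus highest at 72 h, 1.85-fold above DMSO, and 24 h was the next highest column. IGFBP5, a binding protein that is made by differentiating myoblasts and sits partly in the extracellular matrix, had 996 normalised counts in DMSO and then 1106, 2487, 4686 and 4479. Its increase was seen from 6 h on (2.50-fold) and was 4.71-fold at 24 h and 4.50-fold at 72 h.

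The trend test fitted a slope on log2 of hours plus 1 across each line's 5 columns with edgeR's quasi-likelihood method. It called 2 of 9 members tested, both upward, against 4.70% of all 14255 genes. The slope of IGF2 was 0.16 ± 0.03 (SE, log2 per doubling of hours plus 1; adjusted p = 0.0117), and that of IGFBP5 was 0.41 ± 0.06 (adjusted p = 0.00626). These p-values measure the scatter of pooled columns around a line, with 3 residual degrees of freedom, and not replicate error. Without the 2 h column both slopes still passed, at 0.14 for IGF2 (adjusted p = 0.0321) and 0.38 for IGFBP5 (adjusted p = 0.00507). Single columns did decide calls: the IGF2 slope did not pass without the 72 h column (0.14, adjusted p = 0.205), nor the IGFBP5 slope without DMSO (0.43, adjusted p = 0.0867).

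The FOXO1-FKBP line received the same compound and dose. In the FOXO1-FKBP line IGF2 had 237749 normalised counts in DMSO, then 225603, 222258, 261431 and 253898 after 2, 6, 24 and 72 h, a range from 0.93-fold to 1.10-fold of DMSO. IGFBP5 had 1686 in DMSO, then 1702, 1459, 2144 and 1440, so that 24 h was its highest column and 72 h its lowest. None of 8 members tested passed the trend test in this line, and 0% of all 13862 genes did with edgeR, where 692 had an unadjusted p under 0.05 and DESeq2 called 1. That count rests on the 24 h column, since 1267 genes passed without it.

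The difference between the slopes of the lines was tested in a model over both. It called IGFBP5 alone of 9 members tested (difference 0.41 ± 0.08, SE, adjusted p = 0.024), against 2.11% of 14496 genes. That call did not hold when 1 time was left out of both lines, with adjusted p = 0.341 without DMSO, 0.0997 without 2 h, 0.0524 without 6 h and 0.0843 without 72 h; without 24 h it was 0.00203. IGF2 differed in slope by 0.12 ± 0.04, which did not pass (adjusted p = 0.123). Its adjusted p was 0.00909 with DESeq2, 0.0458 without the 24 h column and 0.00711 after a correction for GC content and transcript length, but 0.357 without 2 h, 0.264 without 6 h, 0.697 without 72 h and 0.501 without DMSO.

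**Figure D1:**
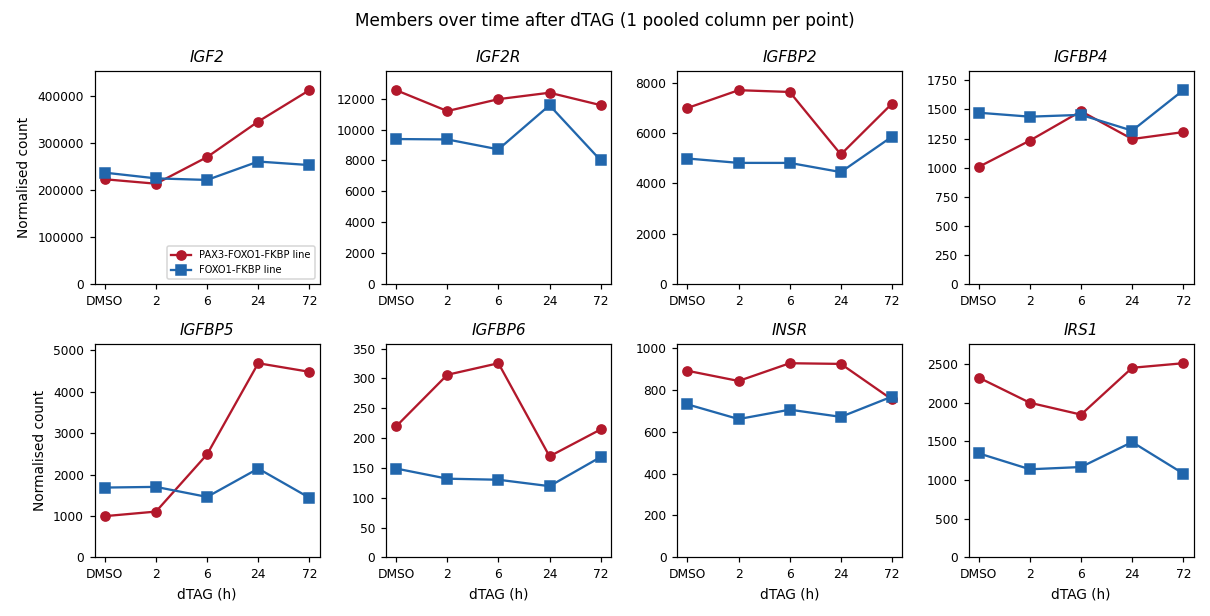
Normalised count (y axis, from 0) of 8 members in DMSO and at 2, 6, 24 and 72 h of dTAG (x axis, evenly spaced and not to scale in time), with circles for the PAX3-FOXO1-FKBP line and squares for the FOXO1-FKBP line, 1 pooled column per point. IGF2 reaches 413314 and IGFBP5 4479 at 72 h in the PAX3-FOXO1-FKBP line, against 253898 and 1440 in the FOXO1-FKBP line.

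Markers of differentiated muscle were higher at 24 and 72 h of dTAG than in DMSO in the PAX3-FOXO1-FKBP line. The 12 genes of that list summed to 6880 normalised counts in DMSO and to 6914, 6592, 15450 and 56840 after 2, 6, 24 and 72 h in the PAX3-FOXO1-FKBP line, and to between 8632 and 10900 in the 5 columns of the FOXO1-FKBP line. The fibroblast list summed to 19150 in DMSO, to 20430 to 21050 at 2, 6 and 24 h and to 27740 at 72 h in the PAX3-FOXO1-FKBP line, and to 3050 to 4613 in the FOXO1-FKBP line. Of its 8 genes, 4 to 7 had at least 10 counts in the columns of the PAX3-FOXO1-FKBP line and 5 in those of the FOXO1-FKBP line. All 4 hepatocyte markers stayed under 10 counts. The part of these markers in the members' levels was not tested, and more cells of a kind cannot be told apart from more RNA per cell in bulk samples.

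By size alone, the changes at single times were few. With a rule of at least 2-fold against DMSO and a mean of at least 50 normalised counts, 0 of 8 members passed at 2 h, 1 at 6 h, 1 at 24 h and 1 at 72 h in the PAX3-FOXO1-FKBP line, and each time it was IGFBP5. Of 12334 genes measured in that line, 0.657% passed at 2 h, 1.84% at 6 h, 3.11% at 24 h and 6.49% at 72 h. IGF2 stayed under the 2-fold line at 72 h (log2 change 0.89) and passed it after the GC and length correction (1.05). In the FOXO1-FKBP line 0 of 8 members passed at any time, against 0.0751%, 0.0584%, 0.209% and 0.417% of 11982 genes at 2, 6, 24 and 72 h. The median log2 change of the 8 members at 72 h was 0.07 in the PAX3-FOXO1-FKBP line, where it was 0 over all genes measured, and 0.08 in the FOXO1-FKBP line, where it was -0.001.

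**Figure D2:**
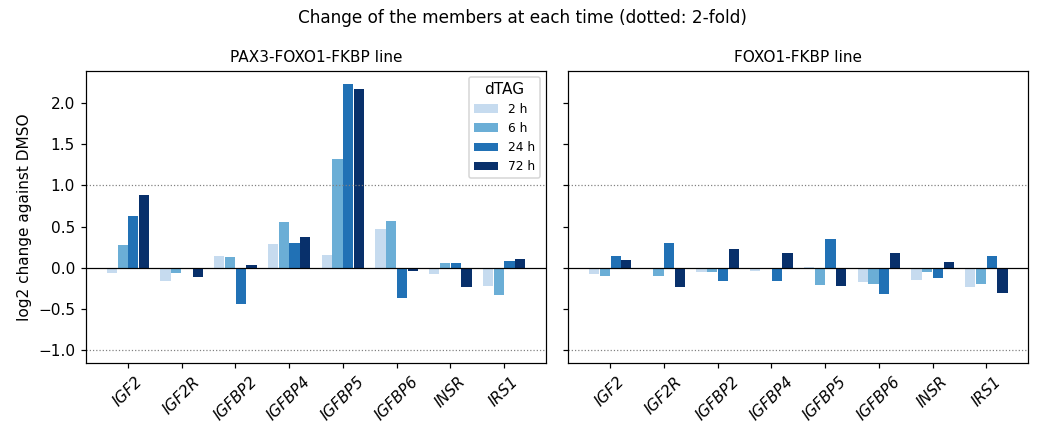
log2 change against DMSO of the same line (y axis) for 8 members (x axis) at 2, 6, 24 and 72 h of dTAG, light to dark bars, with the PAX3-FOXO1-FKBP line in the left panel, the FOXO1-FKBP line in the right one and dotted lines at 2-fold. In the left panel IGFBP5 passes the dotted line from 6 h on, while in the right panel every bar stays within 0.35 of 0.

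The remaining binding proteins had no change that passed the trend test in either line. IGFBP4, which restrains IGF action until it is cleaved by the protease PAPPA, had 1007 normalised counts in DMSO and 1233, 1484, 1245 and 1305 after 2, 6, 24 and 72 h in the PAX3-FOXO1-FKBP line, so all 4 dTAG columns lay above DMSO (adjusted p = 0.567). In the FOXO1-FKBP line it had 1471 in DMSO and 1437, 1453, 1317 and 1664. IGFBP2, a binding protein abundant in fetal life, had 6995 in DMSO and then 7700, 7630, 5153 and 7166 in the PAX3-FOXO1-FKBP line, with the low column at 24 h. In the FOXO1-FKBP line IGFBP2 ranged from 4452 at 24 h to 5857 at 72 h. IGFBP6, which binds IGF2 in preference to IGF1, had 220 in DMSO and 306, 325, 169 and 214 in the PAX3-FOXO1-FKBP line, higher at the early times and lower at 24 h, and 119 to 168 in the FOXO1-FKBP line. IGFBP3, the main carrier of IGF in blood, was listed at 0 in 9 of 10 columns and at 0.458 estimated counts in the remaining one, the 6 h column of the PAX3-FOXO1-FKBP line.

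The receptors and the adaptor had no slope that passed in either line. IGF2R had 12540 normalised counts in DMSO and 11192, 11961, 12376 and 11575 after 2, 6, 24 and 72 h in the PAX3-FOXO1-FKBP line, and 8007 to 11566 in the FOXO1-FKBP line. INSR had 890 in DMSO and 842, 927, 923 and 754 in the PAX3-FOXO1-FKBP line, with 72 h the lowest, and 660 to 767 in the FOXO1-FKBP line. IRS1 had 2323 in DMSO and 1998, 1845, 2450 and 2509 in the PAX3-FOXO1-FKBP line, and 1083 to 1491 in the FOXO1-FKBP line. Adjusted p-values of these slopes were 0.904 for IGF2R, 0.706 for INSR and 0.639 for IRS1 in the PAX3-FOXO1-FKBP line. The long transcripts IGF2R (14044 nt), IRS1 (9705 nt) and INSR (8954 nt) and the short IGFBP6 (1177 nt) are the members most exposed to a relation with length. Across genes, Spearman's rho of the log2 change with transcript length was -0.30, -0.25, -0.02 and -0.27 after 2, 6, 24 and 72 h in the PAX3-FOXO1-FKBP line and -0.03, -0.35, 0.30 and -0.47 in the FOXO1-FKBP line.

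H19, the non-coding RNA beside IGF2, was close to the counting floor. It had 4.18 normalised counts in DMSO and 4.48, 3.54, 10.99 and 11.5 after 2, 6, 24 and 72 h in the PAX3-FOXO1-FKBP line (slope 0.30 ± 0.12, SE, adjusted p = 0.239), and 2.07 to 5.85 in the FOXO1-FKBP line. In the clone and parental libraries it had 4 and 0 counts in clone 4, 9 and 3 counts in clone 10, 1 and 5 counts in clone 11, 6 and 0 counts in clone 12, and 11 and 5 in parental Rh30, too few for a test. H19 is also the host of miR-675, whose mature forms, as RefSeq lists them on GRCh38.p14, are shown because they are the known processed product of this RNA. The capitals mark the seed, bases 2 to 8.
hsa-miR-675-5p (chr11:1996800-1996822, minus strand): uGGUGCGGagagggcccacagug
hsa-miR-675-3p (chr11:1996768-1996787, minus strand): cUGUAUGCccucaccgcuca
The arms have different seeds, and mature miRNA was not measured in these libraries.

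INS-IGF2 held little of the signal at this locus. Its estimated or raw count came to between 0% and 0.140% of that of IGF2 over the 20 columns and libraries. In the PAX3-FOXO1-FKBP line it had 150 normalised counts in DMSO and 55.8, 79.0, 88.7 and 249.5 after 2, 6, 24 and 72 h, and in the FOXO1-FKBP line 19.99 in DMSO and 123, 116, 114 and 49.99. The dTAG columns at 2, 6 and 24 h thus lay below DMSO in the PAX3-FOXO1-FKBP line and above it in the FOXO1-FKBP line, with no test at single times. Its slopes did not differ between the lines (difference 0.07 ± 0.22, SE, edgeR adjusted p = 0.965). Clone 4 had 0 and 0 counts, clone 10 had 0 and 23, clone 11 had 0 and 26, clone 12 had 0 and 94, and parental Rh30 had 65 and 84, so that replicates of 3 clones disagreed on whether it was seen. Against parental it was called lower in clone 4 (edgeR adjusted p = 0.0489), and not in clones 10, 11 and 12 (adjusted p = 0.236, 0.31 and 0.916). Adding INS-IGF2 to IGF2 left the slope of IGF2 at 0.16 (adjusted p = 0.0118).

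Before dTAG, the pooled DMSO columns of the lines differed in binding proteins, not all in the same direction. In DMSO, with both lines scaled together, IGFBP5 had 926 normalised counts in the PAX3-FOXO1-FKBP line and 1815 in the FOXO1-FKBP line (log2 difference -0.97), and IGFBP4 had 936 in the PAX3-FOXO1-FKBP line and 1584 in the FOXO1-FKBP line (-0.76). IGFBP2 (0.27) and IGFBP6 (0.34) were somewhat higher in the PAX3-FOXO1-FKBP line. IRS1 was higher, with 2160 in the PAX3-FOXO1-FKBP line and 1448 in the FOXO1-FKBP line (0.58). INS-IGF2 had 139 in the PAX3-FOXO1-FKBP line and 21.5 in the FOXO1-FKBP line (2.59). IGF2 had 207978 in the PAX3-FOXO1-FKBP line and 256046 in the FOXO1-FKBP line (-0.30). With 1 pooled column per line, these differences have no replicate check.

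Per length of transcript, IGF2 stood among the most abundant mRNAs of the cells. Counts per kb of transcript were scaled to the same sum in each column. By this level IGF2 ranked 28th in DMSO and 34th, 25th, 11th and 14th after 2, 6, 24 and 72 h in the PAX3-FOXO1-FKBP line. It ranked between 17th and 34th in the FOXO1-FKBP line. On the same scale IGF2 exceeded the sum of the 4 detected binding-protein mRNAs 16.8-fold in DMSO and 14.0-, 15.8-, 23.6- and 23.7-fold after 2, 6, 24 and 72 h in the PAX3-FOXO1-FKBP line, and 18.5- to 22.8-fold in the FOXO1-FKBP line. The mix of binding proteins changed in the PAX3-FOXO1-FKBP line. IGFBP5 made up 6.71% of their summed level in DMSO and 6.49%, 13.0%, 28.7% and 23.1% at 2, 6, 24 and 72 h, while IGFBP2 made up 66.3% in DMSO and 44.4% at 24 h. The share of IGFBP5 lay between 9.43% and 16.8% in the FOXO1-FKBP line.

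**Figure D3:**
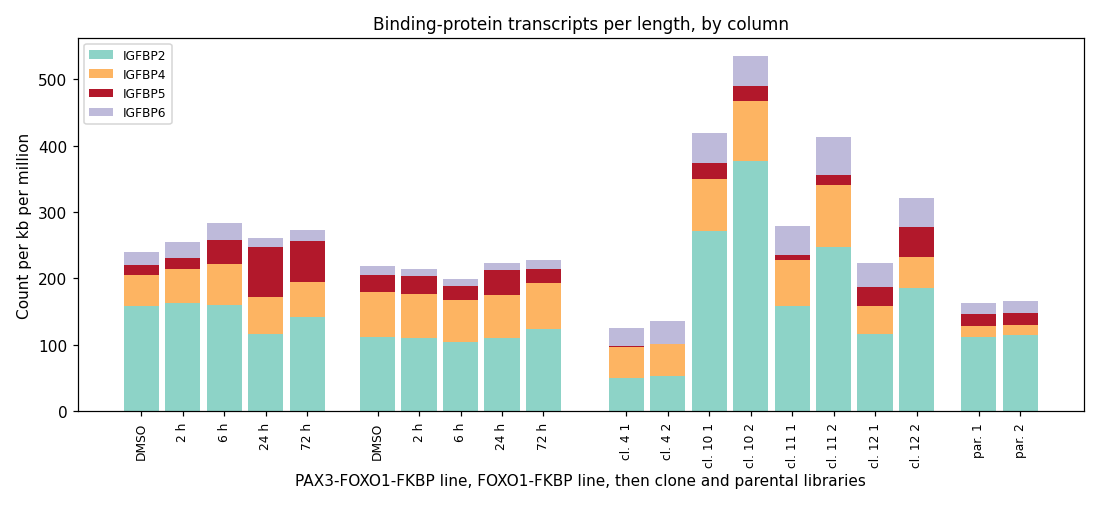
Summed level of IGFBP2, IGFBP4, IGFBP5 and IGFBP6 (y axis, stacked from 0), 1 bar per column or library with no replicate error. Levels are counts per kb of transcript, scaled to the same sum in each column or library. Bars are the 5 columns of the PAX3-FOXO1-FKBP line and the 5 of the FOXO1-FKBP line. They also include the 8 clone libraries (cl.) and the 2 parental libraries (par.). The share of IGFBP5 grows to 28.7% at 24 h of dTAG in the first line and is under 1% in both libraries of clone 4.

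The tagged clones differed from parental Rh30 in most of these genes, in a setting where about every other gene of the transcriptome differed. With edgeR's quasi-likelihood test (adjusted p under 0.05), 6 of 8 members tested were called in clone 4 (3 higher, 3 lower), against 47.4% of 14175 genes. In clone 10 it was 6 members (5 higher, 1 lower) against 52.0% of genes, in clone 11 it was 5 (3 higher, 2 lower) against 51.6%, and in clone 12 it was 5 (3 higher, 2 lower) against 52.6%. For the mean of the 4 clones against parental, 6 members were called (3 each way) against 55.9% of genes. The background was high in each comparison, and the counts are read against it. The median log2 change of the 8 members was 0.15, 1.02, -0.03 and 0.44 in clones 4, 10, 11 and 12, where over all genes it was 0.05, 0.05, -0.005 and 0.03. H19 and IGFBP3 did not pass the filter on low counts. The 2 parental libraries differed from each other by little more than counting noise (chi-square per degree of freedom 1.84, against 14.0 to 51.3 within the clones). With the parental libraries summed to 1 sample, 3 members were called for the mean of the clones. Myogenic markers also differed, summing to 7137 to 10050 CPM in the clones and 4584 to 4586 CPM in parental Rh30, and markers of differentiated muscle to 166 to 252 CPM in the clones and 106 to 109 CPM in parental Rh30. Their part in the members' levels was not tested. Across genes, rho of the log2 change against parental with transcript length was -0.102, -0.0315, -0.357 and -0.304 in clones 4, 10, 11 and 12.

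IGFBP4 and IGFBP6 were higher in all 4 clones. For these and the genes below, the share of all genes that lie apart from parental in this way was not counted. In single clones 47.4% to 52.6% of all genes were called in either direction. IGFBP4 had 34.8 and 42.6 CPM (read counts scaled to library size with TMM factors) in clone 4, 56.9 and 72.8 CPM in clone 10, 60.9 and 91.9 CPM in clone 11 and 37.9 and 44.0 CPM in clone 12, against 11.8 and 11.6 in parental Rh30. No clone library overlapped the parental ones, and the log2 fold changes were 1.73 ± 0.21, 2.47 ± 0.22, 2.70 ± 0.22 and 1.81 ± 0.21 (SE, n = 2 each, edgeR adjusted p from 2.87e-05 to 0.000182). Over all alternatives, which include the GC and length correction, the lowest values were 1.28, 1.96, 1.99 and 1.19 in clones 4, 10, 11 and 12. IGFBP6 had 11.1 and 16.2 CPM in clone 4, 17.3 and 19.8 CPM in clone 10, 21.19 and 30.4 CPM in clone 11 and 17.5 and 21.9 CPM in clone 12, against 6.90 and 7.67 in parental Rh30. Again every clone library lay above both parental ones, with log2 fold changes of 0.90, 1.34, 1.82 and 1.44 and edgeR adjusted p from 0.000207 to 0.0092. For IGFBP6, the shortest member (1177 nt), the lowest values over all alternatives were 0.52, 1.01, 1.03 and 0.75 in clones 4, 10, 11 and 12. The call in clone 4 did not hold without its second library (0.54, adjusted p = 0.103) or without the first parental one (0.83, adjusted p = 0.0687).

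The promoter windows of these 2 genes are shown because both were higher in every clone; IGFBP5 is added as the member with the largest changes. They are the 250 bases before the transcript start in RefSeq on GRCh38.p14, written on the strand of the gene. Capitals mark matches to any of 6 motifs searched on both strands: the E-box CANNTG, its MyoD-type form CAGCTG, which is a subset of it, the FOXO motif GTAAACA, the paired-domain core GTCACG, the TATA box TATAAA and the homeodomain core TAATTA.
IGFBP4 (chr17:40443200-40443449, plus strand): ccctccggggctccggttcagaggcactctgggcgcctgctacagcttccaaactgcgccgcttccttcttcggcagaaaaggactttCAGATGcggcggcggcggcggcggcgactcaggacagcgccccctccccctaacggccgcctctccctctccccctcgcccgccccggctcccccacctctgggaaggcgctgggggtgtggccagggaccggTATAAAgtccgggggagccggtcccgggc
IGFBP6 (chr12:53097417-53097666, plus strand): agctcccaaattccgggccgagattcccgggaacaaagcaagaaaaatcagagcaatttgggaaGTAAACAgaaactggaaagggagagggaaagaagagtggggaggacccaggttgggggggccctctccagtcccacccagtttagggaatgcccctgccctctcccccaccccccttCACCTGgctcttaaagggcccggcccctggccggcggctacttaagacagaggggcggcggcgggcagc
IGFBP5 (chr2:216695550-216695799, minus strand): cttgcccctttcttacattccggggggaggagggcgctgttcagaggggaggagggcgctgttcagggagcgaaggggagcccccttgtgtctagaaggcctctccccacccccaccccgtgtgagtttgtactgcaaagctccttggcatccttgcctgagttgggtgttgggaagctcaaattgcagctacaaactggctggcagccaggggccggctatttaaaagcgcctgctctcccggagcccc
IGFBP4 holds 1 E-box and 1 TATA box, IGFBP6 holds 1 FOXO motif and 1 E-box, and the IGFBP5 window holds none of the 6 motifs. Of 35116 promoter windows of the same length, 61.8% hold an E-box, 14% its MyoD-type form, 2.98% the FOXO motif, 7.93% the paired-domain core, 10.7% the TATA box and 4.35% the homeodomain core. RefSeq windows were found for 9 of the 10 members. A match describes the letters and says nothing of binding.

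IGFBP5 differed most between clones. Clone 4 had 48 and 17 raw counts, or 2.41 and 0.91 CPM. Clone 10 had 51.7 and 51.1 CPM, clone 11 had 19.6 and 41.02, clone 12 had 74.7 and 118, and parental Rh30 had 38.2 and 35.9. Both libraries of clone 4 lay far below all others and both of clone 12 above, those of clone 10 lay somewhat above parental, and those of clone 11 lay on either side of it. Against parental, clone 4 was lower by a log2 fold change of -4.46 ± 0.44 (SE, edgeR adjusted p = 5.28e-05), and the value kept between -5.38 and -4.01 when any 1 library was left out. Clone 12 was higher at 1.38 ± 0.34 (adjusted p = 0.00596), a call that did not hold without its second library (0.95, adjusted p = 0.0783). Changes of 0.47 in clone 10 (adjusted p = 0.258) and -0.30 in clone 11 (adjusted p = 0.483) did not pass, and the value for clone 11 was -0.99 without its second library (adjusted p = 0.0586) and 0.09 without its first (adjusted p = 0.842). Epithelial markers were also apart: the 5 genes of that list summed to 122 and 154 CPM in clone 4 and to 52.0 and 53.0 CPM in clone 10, where IGFBP5 was not called lower, against 5.76 and 5.79 in parental Rh30, and their part in this result was not tested. Of the 5 genes, 3 had at least 10 counts in the libraries of clones 4 and 10 and 2 in parental Rh30.

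IGFBP2 was lower in clone 4 and higher in clones 10 and 11. It had 76.1 and 95.2 CPM in clone 4, 396 and 608 CPM in clone 10, 282 and 489 CPM in clone 11 and 210 and 345 CPM in clone 12, against 165 and 169 in parental Rh30. Clone 4 lay below parental and the other 3 clones above, with no overlap. The log2 fold changes were -0.96 ± 0.30 in clone 4 (edgeR adjusted p = 0.0201), 1.59 ± 0.30 in clone 10 (adjusted p = 0.00138), 1.21 ± 0.29 in clone 11 (adjusted p = 0.00584) and 0.74 ± 0.29 in clone 12, which did not pass (adjusted p = 0.0535). Clone 12 was near the threshold, with adjusted p = 0.0325 by DESeq2 and 0.0027 without the low-count filter, but 0.133 by library totals. Its value was 0.27 without its second library and 0.99 without its first. The call in clone 11 did not hold without its second library (0.69, adjusted p = 0.115), nor that in clone 4 without its first (-0.85, adjusted p = 0.0749), without either parental library (adjusted p = 0.061 and 0.0716) or with these summed (adjusted p = 0.0627).

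IGF2 was lower in clones 4 and 12. It had 4134 and 4704 CPM in clone 4, 8888 and 7595 CPM in clone 10, 7201 and 8032 CPM in clone 11 and 3030 and 3264 CPM in clone 12, against 6794 and 6823 in parental Rh30. The libraries of clones 4 and 12 lay below both parental ones, and those of clones 10 and 11 lay above. Fold changes on the log2 scale were -0.62 ± 0.14 in clone 4 (edgeR adjusted p = 0.00432) and -1.11 ± 0.14 in clone 12 (adjusted p = 0.000184). In clone 10 (0.28, adjusted p = 0.12) and clone 11 (0.16, adjusted p = 0.353) they did not pass, and both turned negative after the GC and length correction, at -0.34 (adjusted p = 0.0402) and -0.21 (adjusted p = 0.194). With scaling by library totals clone 11 was at -0.07. That scaling lowers every log2 change against parental by 0.12 (clone 10) to 0.23 (clone 11). The mean of the 4 clones was at -0.33 ± 0.11 (adjusted p = 0.0243), which did not hold without either parental library (adjusted p = 0.151 and 0.159) or with them summed (adjusted p = 0.145). IGF2 ranked 61st and 74th by count per kb in clone 4, 16th and 25th in clone 10, 42nd and 48th in clone 11, 116th and 111th in clone 12, and 38th and 39th in parental Rh30.

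INSR was lower in 3 clones. It had 36.7 and 24.6 CPM in clone 4, 19.7 and 12.9 CPM in clone 10, 18.0 and 18.96 CPM in clone 11 and 16.6 and 17.2 CPM in clone 12, against 33.2 and 32.3 in parental Rh30. All 6 libraries of clones 10, 11 and 12 lay below parental, while those of clone 4 lay on either side. The log2 fold changes were -1.002 ± 0.22, -0.83 ± 0.22 and -0.95 ± 0.22 in clones 10, 11 and 12 (SE, edgeR adjusted p from 0.0034 to 0.0091), and -0.10 in clone 4 (adjusted p = 0.732). Over all alternatives, which include the GC and length correction, the smallest decreases were -0.77, -0.44 and -0.59 in clones 10, 11 and 12. INSR is a long transcript (8954 nt).

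IRS1 and IGF2R varied by clone. IRS1 had 76.8 and 45.9 CPM in clone 4, 117 and 101 CPM in clone 10, 28.99 and 25.5 CPM in clone 11 and 56.7 and 43.0 CPM in clone 12, against 47.6 and 45.3 in parental Rh30. Clone 10 was higher (log2 fold change 1.23 ± 0.22, edgeR adjusted p = 0.00111) and clone 11 lower (-0.77 ± 0.22, adjusted p = 0.0144). The call in clone 11 did not hold without the second library of clone 11 (adjusted p = 0.0765), without the first parental one (adjusted p = 0.0657) or with the parental libraries summed (adjusted p = 0.0525). In clone 4 the change of 0.40 did not pass (adjusted p = 0.152), but did without its second library (0.66, adjusted p = 0.0126), while without its first it was at -0.06 (adjusted p = 0.819). The GC and length correction added calls of higher IRS1 in clone 4 (0.40, adjusted p = 0.0403), in clone 12 (0.41, adjusted p = 0.0349) and for the mean of the clones (0.37, adjusted p = 0.0214). IGF2R had 721 and 406 CPM in clone 4, 668 and 561 CPM in clone 10, 302 and 303 CPM in clone 11 and 386 and 383 CPM in clone 12, against 358 and 342 in parental Rh30. It was called higher in clone 10 (0.81 ± 0.22, adjusted p = 0.00911) and in clone 4 (0.69 ± 0.22, adjusted p = 0.022). For clone 4 the value was 0.17 (adjusted p = 0.347) without its first library, and it did not pass by library totals (adjusted p = 0.0879) or without either parental library (0.0828 and 0.109). The call in clone 10 was lost without its first library (adjusted p = 0.0626) or the second parental one (0.0594). Neither call held with the parental libraries summed (adjusted p = 0.0951 in clone 4 and 0.0513 in clone 10). After the GC and length correction IGF2R was called higher in clone 12 too (0.58, adjusted p = 0.00122), and clone 11 was at 0.26 in place of -0.21 (adjusted p = 0.0628). The 2 libraries of clone 4 differed from each other by transcript length, with rho 0.55 between length and their log2 difference across genes, against 0.05 in parental Rh30, and IGF2R and IRS1 are long transcripts.

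**Figure D4:**
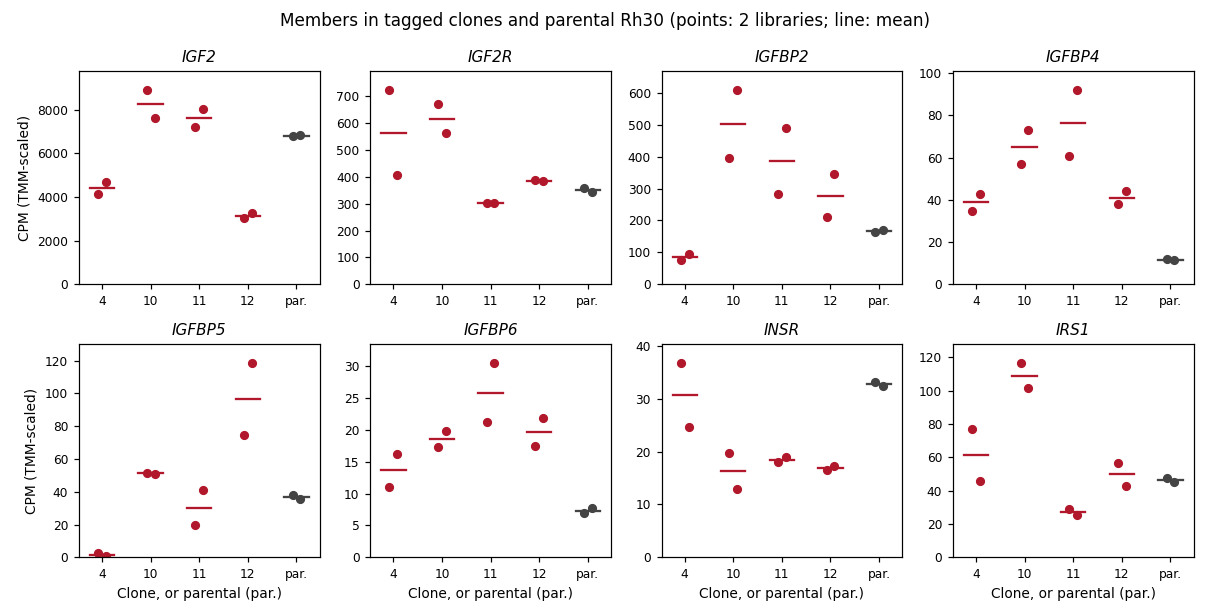
CPM with TMM scaling (y axis, from 0) of 8 members in clones 4, 10, 11 and 12 and in parental Rh30 (par.), with a point per library and a line at the mean of 2. All 8 clone libraries lie above both parental ones for IGFBP4 and IGFBP6, and IGFBP5 is 2.41 and 0.91 CPM in clone 4. The share of all genes with such a separation was not counted.

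Compared with each other, the clones differed in all 8 members tested, against 63.5% of genes. The calls of INSR and IGFBP6 rested on single libraries: without the first library of clone 4 the adjusted p was 0.126 for INSR and 0.0731 for IGFBP6, and without the second of clone 11 it was 0.111 for IGFBP6. By pairs, clone 4 differed from clone 10 in 6 members (23.8% of genes), from clone 11 in 8 (35.7%) and from clone 12 in 4 (30.5%). Clone 10 differed from clone 11 in 2 members (42.0%), or in 4 with the replicate number as a block, and from clone 12 in 5 (35.3%), and clone 11 from clone 12 in 4 (27.5%). Of the 6 pairs, 5 differed in IGF2 and 5 in IRS1, 4 each in IGFBP2, IGFBP4 and IGFBP5, 3 each in IGF2R and INSR, and 1 in IGFBP6.

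In order of mean CPM, IGF2 was highest in clone 10, then clone 11, parental, clone 4 and clone 12. Clones 10 and 11 did not differ there (adjusted p = 0.539), nor clone 11 and parental (0.353), whereas clones 4 and 12 did (0.0227). For IGFBP5 the order was clone 12, clone 10, parental, clone 11 and clone 4, and only the last step passed (adjusted p = 8.83e-05, edgeR). IGFBP4 and IGFBP6 were both highest in clone 11 and lowest in parental, and the step to parental from clone 4, the lowest clone, passed for both (adjusted p = 0.000182 and 0.0092). INSR was highest in parental and lowest in clone 10, with the step between clones 4 and 11 the only one between neighbours that passed (adjusted p = 0.025). For IGF2R no 2 neighbours differed.

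**Figure D5:**
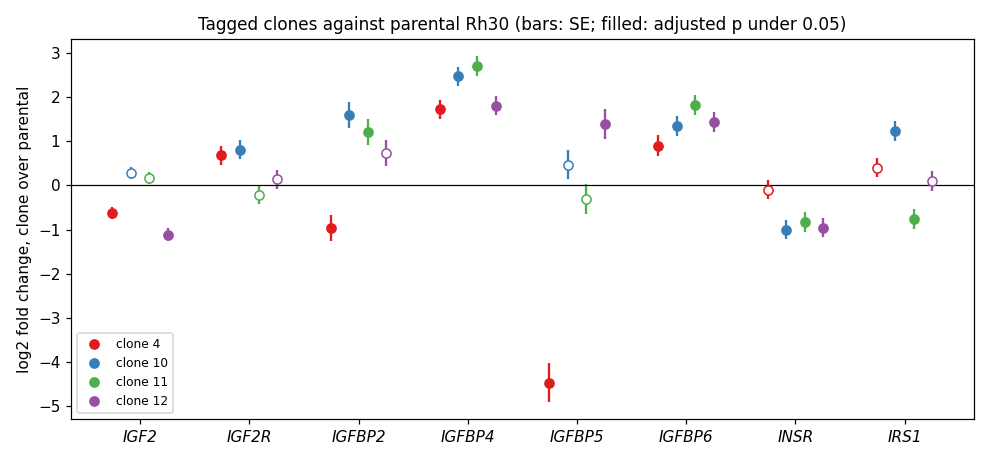
log2 fold change of each clone over parental Rh30 (y axis) for 8 members (x axis), with bars for the standard error of the edgeR fit and filled points where the adjusted p was under 0.05 (n = 2 libraries per group). IGFBP4 and IGFBP6 lie above 0 in all 4 clones, and IGFBP5 in clone 4 lies at -4.46.

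Per kb of the longest transcript, the ratio of ligand to binding-protein mRNA was lower in every clone library than in parental Rh30. It depends on the length assigned to each gene, such as 5585 nt for IGF2 and 4414 nt for IGFBP2. Other lengths were not tried and the ratio was not tested, so the smaller difference of clone 4 may rest on these lengths. Per kb, IGF2 exceeded the summed binding-protein mRNAs 17.3- and 15.4-fold in clone 4, 11.5- and 6.94-fold in clone 10, 11.4- and 7.77-fold in clone 11 and 5.91- and 4.30-fold in clone 12, against 22.3- and 21.8-fold in parental Rh30. In clone 10 the sum of binding proteins was high, at 419 and 536 against 164 and 167 in parental. These levels are counts per kb, scaled to the same sum in each library. In clone 12 IGF2 was also low. The fibroblast list was high in clone 10 as well, where its 8 genes summed to 1025 and 1058 CPM, against 50.9 and 50.6 in parental Rh30. Of these 8 genes, 4 to 5 had at least 10 counts in the libraries of clone 10 and 4 in parental Rh30. The part of these markers in this ratio was not tested.

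Further genes of the pathway moved in few places over time. Of 8 tested receptors, other ligands and adaptors, SHC1 fell in the PAX3-FOXO1-FKBP line and 7 did not pass. SHC1, an adaptor toward the RAS-ERK branch, had 5820 normalised counts in DMSO and 4648, 4059, 2832 and 2909 at 2, 6, 24 and 72 h (slope -0.18 ± 0.03, adjusted p = 0.00943), against 4638 to 5253 in the FOXO1-FKBP line (difference in slope -0.17, adjusted p = 0.0264, and 0.14 without the 2 h column). Of 7 tested genes of the extracellular control of IGF, IGFBP7 rose. This low-affinity relative of the binding proteins had 609 in DMSO and 850, 906, 1066 and 4992 in the PAX3-FOXO1-FKBP line (slope 0.45 ± 0.08, adjusted p = 0.018) and 11.4 to 22.5 in the FOXO1-FKBP line. Its difference in slope did not pass (0.47 ± 0.19, adjusted p = 0.332). Among 20 genes of PI3K, AKT and mTOR, 0 passed in either line or in the difference with edgeR; the lowest adjusted p in the PAX3-FOXO1-FKBP line was that of the regulatory subunit gene PIK3R3 (0.0824). Median slopes were -0.04 for the first list, 0.07 for the second and 0.002 for the third, against 0 over all genes.

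Regulators and imprinted genes showed single changes. Of 9 tested regulators of IGF2 RNA or transcription, HMGA2, a chromatin protein that acts with PLAG1 on IGF2, fell: it had 7599 normalised counts in DMSO and 6135, 4071, 3659 and 3196 after 2, 6, 24 and 72 h in the PAX3-FOXO1-FKBP line (adjusted p = 0.00729), and 4407 in DMSO and 3328 at 72 h in the FOXO1-FKBP line. The difference in slope of HMGA2 did not pass (adjusted p = 0.0556). Among 13 tested imprinted genes PEG10 fell, with 29180 in DMSO and 25290, 20050, 15970 and 12720 in the PAX3-FOXO1-FKBP line (adjusted p = 0.00346; difference in slope -0.16, adjusted p = 0.0151, and 0.109 without 2 h). Of 6 tested neighbours of H19 and IGF2 on the chromosome, the troponin genes TNNI2 and TNNT3 rose. TNNI2 had 1090 in DMSO and 1395, 1523, 2191 and 3903 at 2, 6, 24 and 72 h (adjusted p = 0.00335, difference in slope 0.26, adjusted p = 0.0233, and 0.109 without 2 h). TNNT3, one of the differentiated muscle markers above, had 84.0 in DMSO and 134, 117, 167 and 1170 at these times (adjusted p = 0.0189, difference in slope 0.54, adjusted p = 0.107). Without the 2 h column the slopes of SHC1, IGFBP7, HMGA2, PEG10, TNNI2 and TNNT3 in the PAX3-FOXO1-FKBP line still passed (adjusted p from 0.00507 to 0.0227). Leaving out the 72 h or any other column was not tried for these genes.

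The same lists were counted in the clones, where 47.4%, 52.0%, 51.6% and 52.6% of all genes were called in clones 4, 10, 11 and 12, so that many of these counts lie at or below the background. Of 9 tested receptors, ligands and adaptors, 4 were called in clone 4, 4 in clone 10, 8 in clone 11 and 6 in clone 12. IGF1R, the signalling receptor of IGF2, averaged 40.1 ± 5.27 CPM in clone 11 and 25.3 ± 4.47 in clone 12, against 68.4 ± 0.45 in parental Rh30 (SD, n = 2 each), with log2 fold changes of -0.77 (edgeR adjusted p = 0.0122) and -1.44 (adjusted p = 0.000467). Of 7 genes of extracellular control, 2 were higher and 1 lower in clone 4, 6 higher in clone 10, 2 higher and 4 lower in clone 11, and 4 higher and 1 lower in clone 12. PAPPA was lower in clone 11 (-1.92, adjusted p = 0.000174) and clone 12 (-0.85, adjusted p = 0.00842). IGFBP7 averaged 61.7 ± 21.3 CPM in clone 10, against 1.43 ± 0.55 in parental Rh30 (SD, n = 2 each; log2 fold change 5.44, edgeR adjusted p = 4.17e-06).

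AKT1, a kinase downstream of PI3K, was higher for the mean of the 4 clones (log2 fold change 0.61 ± 0.10, edgeR adjusted p = 0.000394), and of the 20 PI3K, AKT and mTOR genes 6 were higher and 7 lower for that mean, against 55.9% of all genes called. Of 9 tested regulators of IGF2, 3 each were called in clones 4, 10 and 11 and 7 in clone 12. Of 12 imprinted genes 7, 6, 5 and 7 were called in clones 4, 10, 11 and 12, and of 6 chromosomal neighbours 2, 3, 5 and 4. Over all genes 47.4%, 52.0%, 51.6% and 52.6% were called in these clones. PLAG1, a transcription factor of IGF2 promoters, was lower in each clone, at -1.25, -1.35, -1.28 and -1.70 in clones 4, 10, 11 and 12 (adjusted p from 0.000492 to 0.00263). In clone 12, where IGF2 was lowest, LIN28B was at -2.28 (adjusted p = 2.89e-05), HMGA2 at -1.61 (adjusted p = 8.74e-05) and the IGF2 mRNA-binding protein IGF2BP3 at -1.11 (adjusted p = 0.000552). IGF2BP3 was also lower in clone 10 (-0.80, adjusted p = 0.00323), where mean IGF2 was highest, and in clone 4 (-0.46, adjusted p = 0.0492), and LIN28B was lower in clone 11 (-0.51, adjusted p = 0.0324). KCNQ1OT1, the imprinted non-coding RNA of the neighbouring domain, was lower in all 4 clones, between -3.32 in clone 12 and -1.82 in clone 11 (adjusted p from 0.000209 to 0.00336). Its libraries spread widely, at 19.4 ± 10.6 CPM in clone 4, 20.7 ± 7.53 in clone 10, 28.8 ± 12.9 in clone 11 and 10.3 ± 3.86 in clone 12. Parental Rh30 was at 102.4 ± 1.84 CPM (SD, n = 2 each). A length-corrected value is not given for this gene.

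Genes with a pattern most like that of IGF2 were picked by Pearson's r of log2 normalised values. Over the 10 clone and parental libraries they were FBRSL1 (r = 0.99), SLC25A29 (0.96), NELL1 (0.96), RALGDS (0.96) and PDLIM1 (0.96), out of 9781 genes with a mean of at least 50. Over the 10 time-course columns, each line centred on its own mean, they were PC (0.99), CTIF (0.98), CKB (0.98), SMYD1 (0.98) and ERBB3 (0.97), out of 10121. IGFBP5, a pick made after its values were seen, was followed most closely by LPHN1 (0.99) in the clones and by MTSS1L (0.99) and ATP2A1 (0.99) in the time course. The points of each r share libraries and depth, so these values describe likeness only. Without the 2 h columns the r of these time-course genes was 0.98 to 0.999. H19 was under the minimum level for such a comparison.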

How the data were processed

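RNA sequencing was measured in 30 samples of Rh30 cells. Tools named in the submitters' processing notes are Bowtie2, Trimmomatic 0.32 and Cuffdiff 2.1.1, without order or role, and the build named is hg19. Time-course values are estimated counts that the authors deposited; the file headers show 1 column for each condition, which pools its 2 samples; 73.6% of the values are not whole (tolerance 1e-06) and were rounded for tests. The clone table holds raw counts deposited by the authors, 1 column per library. Clone 12 columns were matched to their group only. Per-sample columns left unused numbered 0.

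For the clones, edgeR 4.0.16 in R 4.3.3 fitted its quasi-likelihood model to the 10 libraries with a mean for each group, TMM scaling, filterByExpr (minimum count 10) and Benjamini-Hochberg adjustment over all genes (threshold 0.05). This leaves 5 residual degrees of freedom. The trend fit leaves 3 per line and 6 for the difference. Time-course changes used a prior count of 2, and a gene at an exact 0 in 1 column with 10 or more counts in the others was dropped as a failed estimate. For IGFBP3, a count of 0 allows up to 0.112 to 0.169 CPM per library (3 counts, counting error only). DESeq2 1.42.0, other scalings, filters, left-out libraries or columns and a GC and length correction (GENCODE 29, matched by symbol) were alternatives. Levels per kb used the longest GENCODE transcript and were scaled to the same sum in each column. Named genes are all members, and up to 4 called genes per list and comparison by lowest p, or the lowest-p gene where none passed, of which the text gives a part. The members and lists were chosen with earlier results of these data known. The fits were tested on simulated data.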

Additional observations from a re-analysis of the deposited data

Results flagged for a closer look

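The slope of IGFBP5 over time differed between the lines, by 0.41 ± 0.08 on the log2 scale (SE, PAX3-FOXO1-FKBP minus FOXO1-FKBP, edgeR adjusted p = 0.024, and 0.0997 without the 2 h column). IGFBP5 was above its own DMSO column in 4 of 4 dTAG columns of the PAX3-FOXO1-FKBP line. In the FOXO1-FKBP line it was within 0.35 of DMSO on the log2 scale.

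INS-IGF2 moved in opposite directions at 2 h, with log2 changes against DMSO of -1.39 in the PAX3-FOXO1-FKBP line and 2.51 in the FOXO1-FKBP line, a difference of -3.90. Each value is 1 pooled column, the PAX3-FOXO1-FKBP one being that with B cell markers, and the difference at 2 h was not tested. The difference in slope of INS-IGF2 between the lines did not pass (edgeR adjusted p = 0.965).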

How the results depend on the processing

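Of the members' values in the clones, 752 kept direction and side of the threshold under the alternatives, 41 lost a call, 11 gained one and 10 changed sign. For the trends the counts were 225, 6, 3 and 22. The cause of each change below was not tested, except that fewer columns or samples leave fewer degrees of freedom.

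Scaling by library totals put the log2 change against parental at -0.0685 for IGF2 in clone 11, at -0.0883 for IGF2R in clone 12 and at -0.12 for IRS1 in clone 12. With the parental libraries summed to 1, 4101, 4764, 4865 and 4932 genes were called in clones 4, 10, 11 and 12, and 4907 genes and 3 members for their mean. The GC and length correction gave -0.3413 for IGF2 in clone 10, -0.2073 in clone 11 and 0.2594 for IGF2R in clone 11. Leaving out 1 library at a time gave 3924 to 7030 genes in clone 4, 4591 to 8137 in clone 10, 4735 to 8069 in clone 11, 4756 to 8181 in clone 12 and 4686 to 8578 for the mean. Members called ranged over 3 to 6 in clone 4, 3 to 5 in clone 11 and 3 to 6 for the mean. The log2 changes that changed sign ranged from -0.9869 to 0.089 for IGFBP5 in clone 11, -0.457 to 0.0982 for INSR in clone 4, -0.0592 to 0.6608 for IRS1 in clone 4 and -0.1688 to 0.2288 for IRS1 in clone 12.

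Deviations of same-numbered libraries correlated at 0.147, 0.157 and 0.364 among clones 4, 10 and 11, but at 0.009 to 0.024 between these clones and parental Rh30. The parental libraries differed by little more than counting noise, so these correlations cannot show whether the numbers pair the clones with parental. Among the clones every correlation was over 0.1. The library differences of clones 4, 10 and 11 also went with transcript length (rho 0.55, 0.38 and 0.24). With the replicate block, which leaves out clone 12, 7046, 7706 and 7689 genes were called in clones 4, 10 and 11 and 8115 for their mean. IGF2 for the mean of the clones was at -0.1268 there (adjusted p = 0.389). Between clones 10 and 11 the block added calls of IGFBP5 (adjusted p = 0.0477) and IGFBP6 (adjusted p = 0.0465); between clones 4 and 10 and between clones 4 and 11 it changed no member's call. This block between pairs and the 2 h omission for pathway genes were added after seeing the data.

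In the time course, DESeq2 called 1046 genes with a trend in the PAX3-FOXO1-FKBP line and 1 in the FOXO1-FKBP line, and 552 genes and 2 members with a difference in trend. Its slope of IGFBP5 in the FOXO1-FKBP line was -3e-04. The difference held for 87 genes and 0 members without the 2 h column and for 167 genes and 0 members without 6 h. Without 24 h, 1273 genes passed in the PAX3-FOXO1-FKBP line and 1267 in the FOXO1-FKBP line, and 693 genes and 2 members differed; the slope of IGFBP5 in the FOXO1-FKBP line was -0.0354 and the difference for IGF2R 0.0219. Without 72 h, 157 genes and 1 member passed in the PAX3-FOXO1-FKBP line and 1 gene in the FOXO1-FKBP line, and 50 genes and 0 members differed. The slope of INSR was then 0.0153 in the PAX3-FOXO1-FKBP line. In the FOXO1-FKBP line slopes were 0.0582 for IGF2R, -0.0337 for IGFBP2, -0.0321 for IGFBP4, -0.0662 for IGFBP6, -0.0199 for INSR and 0.035 for IRS1, and the differences 0.0365 for INSR and -0.0225 for IRS1. Without DMSO, 154 genes and 1 member passed in the PAX3-FOXO1-FKBP line, and 13 genes and 0 members differed. Slopes there were 0.007 for IGF2R and -0.0104 for IGFBP4 in the PAX3-FOXO1-FKBP line and 0.019 for IRS1 in the FOXO1-FKBP line, with differences of 0.0109 for IGF2R and -0.0496 for IGFBP4. The GC and length correction gave 2 members with a difference, slopes of 0.011 for IGF2R in the PAX3-FOXO1-FKBP line and of -0.0179 for IGFBP4, -0.0027 for IGFBP5 and -0.0248 for IGFBP6 in the FOXO1-FKBP line, and a difference of 0.0163 for IGF2R.

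With a minimum mean of 10 in the size rule, 254, 402 and 600 genes passed at 2, 6 and 24 h in the PAX3-FOXO1-FKBP line, and 62, 58, 99 and 141 at 2, 6, 24 and 72 h in the FOXO1-FKBP line. With the GC and length correction 2 members passed at 72 h in the PAX3-FOXO1-FKBP line, and 15 and 32 genes at 24 and 72 h in the FOXO1-FKBP line. The pooled columns of the time course carry no replicate error, and the low counts of H19 and IGFBP3 allow no test of direction.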
